A study of Mus musculus with 27 samples.

Results

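The 8 h interaction between lamin B1 knockdown and TGF-β is the difference between the 8 h response of lamin B1 knockdown (KD) cells and the 8 h response of control cells. It was computed from 8 of the 27 samples of the series, all RNA-seq libraries of NMuMG, an epithelial line from normal mouse mammary gland that undergoes epithelial-to-mesenchymal transition (EMT) under TGF-β. Of the 24247 genes of the expression table, 11450 reached 1 FPKM (sequenced fragments divided by transcript length and by the library total) in at least 2 of the 12 shRNA libraries and were tested, and the value of a gene is (KD at 8 h minus KD untreated) minus (control at 8 h minus control untreated) on the log2(FPKM + 1) scale. The 4 groups, of 2 biological replicates each, were cells infected with an irrelevant control shRNA (shCT) and not treated (0 h), the same cells with TGF-β for 8 h, cells infected with an shRNA against lamin B1 (shLB) and not treated, and these cells with TGF-β for 8 h. All 4 groups were infected populations of the same parental line, selected with puromycin. The TGF-β concentration is given as a range, 1 to 5 ng/ml, and the labels name a single shRNA against lamin B1. The 24 h groups of the same table entered the fit and are given beside the 8 h values.

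Lamin B1 is a filament protein of the nuclear lamina, the meshwork under the inner nuclear membrane, and part of it is found in the nuclear interior. TGF-β signals through its receptors to Smad transcription factors, which raise genes for matrix, protease inhibitors and EMT transcription factors, and in epithelial cells it also slows the passage from G1 into S phase, so that genes for DNA replication fall. An interaction can arise in 2 ways: KD and control cells may differ before TGF-β is added, or at 8 h, and the untreated and 8 h levels are therefore given for each gene.

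Lmnb1 itself, the targeted gene, was at 29.2 and 36.5 FPKM in untreated control cells, 9.01 and 9.27 in untreated KD cells, 32.8 and 32.1 in control cells at 8 h and 7.79 and 8.14 in KD cells at 8 h. Every KD library lay below every control library, at 0.278 of the control mean untreated and 0.245 at 8 h, and the interaction was -0.17 (SE 0.26, adjusted p = 0.763). None of the 14 tested genes of lamins and inner nuclear membrane proteins was called in the interaction. With 4.06% called over all tested genes, 0 calls in a list of this size is near the background. In level, 4 of the 14 were lower in untreated KD cells (9.09% of all tested genes) and none higher. At 8 h 6 were lower (16.5%) and 1 higher, and Lmnb1 was among the lower ones at both times. Lmnb2, which encodes the other B-type lamin, was lower in KD cells at both times, by 0.38 untreated and by 0.68 at 8 h (log2, adjusted p = 0.00336 and 0.000111), and its interaction of -0.30 was not called (adjusted p = 0.0799). Of the epithelial line markers, 5 of 7 reached 1 FPKM, with Krt8 as the highest, while none of 10 immune, 7 endothelial and 10 adipocyte, muscle and neuron markers did, and of 9 fibroblast markers Col1a1 alone reached it.

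In the interaction, 465 genes (4.06% of the 11450) were called with limma at a Benjamini-Hochberg adjusted p under 0.05. The response was higher in KD cells for 281 of them (2.45%) and lower for 184 (1.61%), and the median size of the difference was 0.50 on the log2 scale, with 30 genes past 2-fold. The lower genes included 24 of 46 tested genes of DNA replication, which fell further in KD cells than in control cells. The higher genes included 6 of 18 genes of integrins and laminins and 4 of 33 of the lysosome. The split between directions depends on the scaling of the libraries: with upper quartile scaling 200 genes were higher and 253 lower. The replicates of untreated control cells lay further apart (median difference of 0.098 per gene on the log2 scale) than those of the other 3 groups (0.042 to 0.052). The number of calls depends on single libraries of every group. Without replicate 1 of untreated control cells 333 genes were called and without replicate 2 of it 1485, while leaving out replicate 1 or 2 of untreated KD cells gave 42 and 40, of control cells at 8 h 48 and 29, and of KD cells at 8 h 49 and 57. All 465 genes kept their direction in each of these 8 fits, and 26 were called in every fit, among them Prg4, Fst, Lamb3, Wnt9a, Papss2 and Tubb3 (higher) and Apoa1, Ccne1, Dtl and Nt5e (lower).

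**Figure D1:**
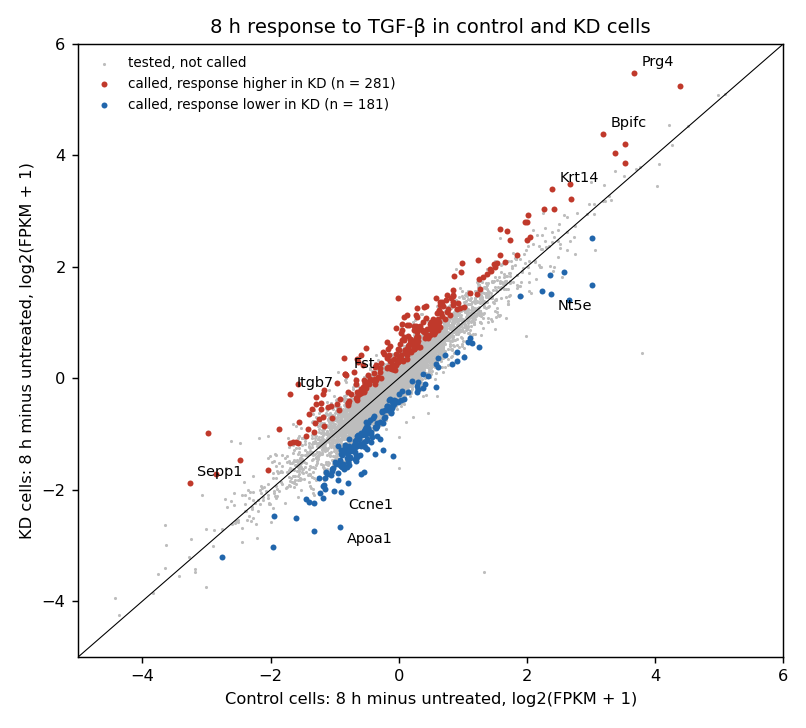
The 8 h change of each tested gene in control cells (x axis) and in KD cells (y axis), both as differences of group means on the log2(FPKM + 1) scale, without 115 small RNA genes and with 2 genes outside the axes; the line marks equal responses. Red points are 281 called genes with a higher response in KD cells and blue points 181 with a lower one; most lie near the line and on the same side of 0 in both cell populations.

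The responses of both populations mostly ran in the same direction and differed in size. Of the 11450 genes, 7360 (64.3%) were called changed at 8 h in control cells and 7761 (67.8%) in KD cells. Among the 184 genes that were lower in the interaction, 133 fell in both populations, 18 fell in KD cells and were not called in control cells, 20 rose in both, 11 rose in control cells and were not called in KD cells, and 2 rose in control cells and fell in KD cells. Among the 281 that were higher, 135 rose in both, 48 rose in KD cells and were not called in control cells, 49 fell in both, 31 fell in control cells and were not called in KD cells, and 18 fell in control cells and rose in KD cells. The median of all tested genes was -0.14 in the control response as deposited and -0.03 after quantile normalization of the libraries, so a small rise or fall is relative to the scaling, whereas no scaling moved the median interaction of all genes by 0.1.

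For most of the 465 genes the difference lay in the 8 h level. KD and control cells differed at 8 h and were not called different untreated for 277 of the 465 genes (59.6%; 169 higher and 108 lower in KD cells). For 82 genes (17.6%; 38 and 44) the untreated level differed and the 8 h level was not called different, for 66 both levels differed with the same sign, and for 40 both differed with opposite signs. Over all tested genes the KD minus control difference was called for 2254 untreated (19.7%) and 4104 at 8 h (35.8%), so the 8 h level was also the more often different among all genes. With fewer calls the class at 8 h only was not the majority everywhere. It held 11 of 30 genes with a 2-fold minimum (12 at both times). It held 165 of 333 without replicate 1 of untreated control cells and 19 of 40 without replicate 2 of untreated KD cells. It held 14 of 29 without replicate 2 of control cells at 8 h and 23 of 49 without replicate 1 of KD cells at 8 h. By size alone, the 8 h difference was at least 2 times the untreated one for 299 genes (190 higher and 109 lower), the untreated difference at least 2 times the 8 h one for 80, and 86 lay between. The interaction is the second of these differences minus the first, so these counts describe the called genes and are not a further test.

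**Figure D2:**
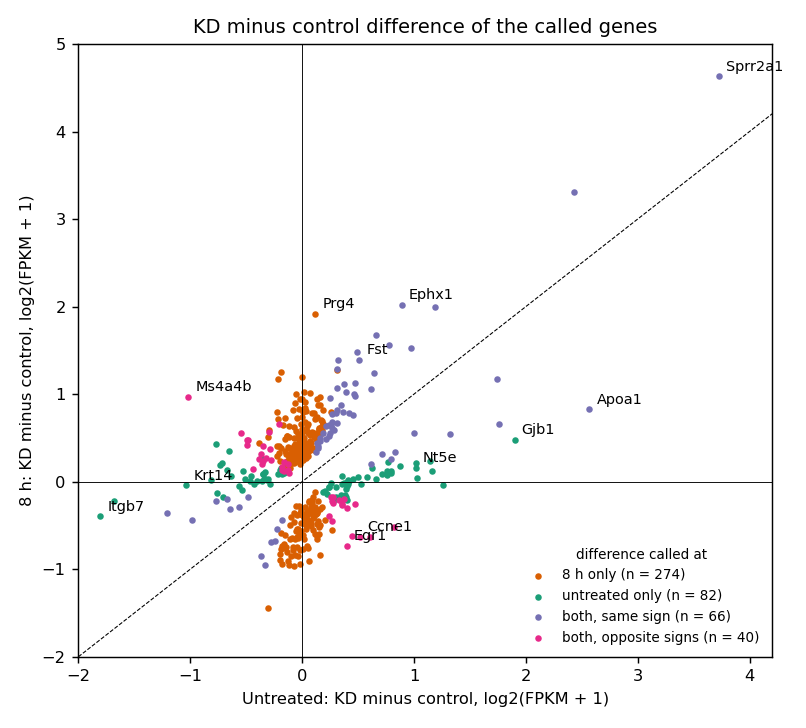
The KD minus control difference of the called genes in untreated cells (x axis) and at 8 h (y axis), on the log2(FPKM + 1) scale, without 3 small RNA genes; colours give the time at which the difference was called and the dashed line marks no interaction. Most points lie along the vertical axis (8 h only), a smaller number along the horizontal axis (untreated only), and Sprr2a1 and Apoa1 lie farthest to the right.

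Genes of DNA replication and S phase had more called members than any other of the 41 fixed lists. The lists were chosen with earlier results of these data known, so this rank is a description. All 46 genes of the replication list were tested, and 24 were called lower and none higher, against 1.61% lower among all tested genes. The median interaction over the 46 was -0.55. The fall at 8 h was called for all 46 genes in control cells (median -0.77; 44.9% of all tested genes) and for all 46 in KD cells (median -1.37; 44.8%), so that the median gene was left at 57.3% of its untreated FPKM in control cells and at 36.8% in KD cells. The untreated level was called lower in KD cells for 1 gene (9.09% of all tested genes) and higher for 2, with a median difference of -0.05. At 8 h it was lower for 43 of 46 (16.5% of all tested genes) and higher for none, with a median of -0.62, and both KD libraries lay below both control libraries for 45 of 46 genes (37.2% of all tested genes). At 24 h it was lower for 36 of 46 (11.5% of all tested genes) and higher for none. In bulk RNA, fewer cells in S phase and less of these RNAs per cell cannot be told apart. The separate list of 27 tested clustered histone genes ran the other way, with 23 positive and 4 negative interactions and a median of 0.34. Of these 27, 1 was called in the interaction, and none was called different in level at 8 h. The difference between these lists was not tested.

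In untreated cells Ccne1 was at 11.6 and 13.3 FPKM in controls and 18.2 and 18.1 in KD cells, and at 8 h at 5.85 and 6.46 and 3.46 and 3.8. Ccne1 encodes cyclin E1, which with Cdk2 drives entry into S phase, and untreated KD cells were above and 8 h KD cells below the controls with no overlap of the replicates. Its interaction was -1.14 (SE 0.11, adjusted p = 0.00267), called in each of the 8 fits that left out a library. For E2f1 the control libraries held 11.2 and 13.4 FPKM untreated and 6.37 and 6.76 at 8 h, and the KD libraries 15.6 and 16.3 and 5.32 and 5.24. E2f1, a transcription factor for S-phase genes, showed the same crossing, with an interaction of -0.62 (SE 0.11, adjusted p = 0.0253).

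Mcm3 was at 70.3 and 88 FPKM in untreated control cells and 74.6 and 74.5 in untreated KD cells, and at 41.5 and 39.4 in control cells and 20.3 and 20.3 in KD cells at 8 h. Mcm3 is a subunit of the helicase that unwinds DNA at the fork, and its interaction was -0.88 (SE 0.15, adjusted p = 0.0219). Replicate 2 of untreated control cells was above replicate 1 for 45 of the 46 replication genes, Mcm3 included, whereas the KD and control libraries at 8 h were separate. In untreated cells Mcm5 was at 57.3 and 68.5 FPKM in controls and 56.7 and 57.7 in KD cells, and at 8 h at 38.6 and 38.7 and 19.6 and 20.8. The interactions of Mcm2, Mcm4, Mcm5 and Mcm7 were -0.81, -0.77, -0.78 and -0.63, and that of Mcm6 was -0.52 and was not called (adjusted p = 0.0761).

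Cdc6 and Cdt1 load the helicase at replication origins. For Cdc6 the control libraries held 9.44 and 12.4 FPKM untreated and 3.46 and 3.47 at 8 h, and the KD libraries 11 and 11.6 and 1.63 and 1.65. Cdt1 was at 34.8 and 40.0 FPKM in untreated control cells and 37.4 and 39.6 in untreated KD cells, and at 22.3 and 19.4 in control cells and 11.8 and 12.5 in KD cells at 8 h. For Cdc6 and Cdt1 the untreated values of both populations overlapped or lay close, and at 8 h both KD values were below both control values, with interactions of -0.81 and -0.77 (adjusted p = 0.0323 and 0.0495). Of the machinery at the fork, the sliding clamp gene Pcna was at 199.9 and 202 FPKM in control and 119 and 125 in KD cells at 8 h, with an interaction of -0.56 (SE 0.11, adjusted p = 0.0367). Others called lower were Mcm10, Cdc45, Gins4, Orc6, Rfc3, Pola2, Pold1, Pole2, Fen1 and Lig1, together with the chromatin assembly factor subunits Chaf1a and Chaf1b, with interactions from -0.76 (Chaf1b) to -0.47 (Gins4). Uhrf1 and Dnmt1, which copy DNA methylation onto the new strand, fell from 51.5 and 64.7 to 26.2 and 24.8 FPKM in control cells and from 53.2 and 53.3 to 12.4 and 13.1 in KD cells (Uhrf1), with interactions of -0.83 and -0.76.

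**Figure D3:**
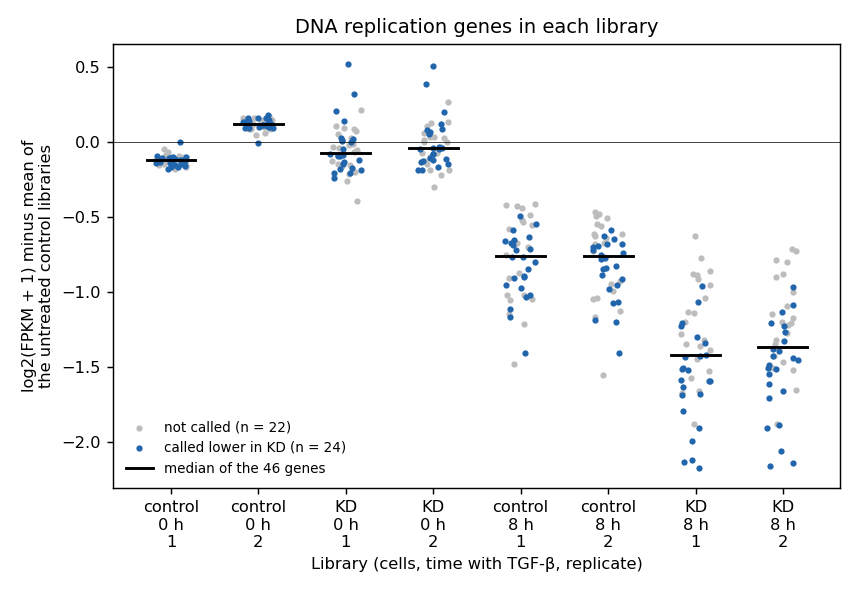
Each point is 1 of the 46 replication genes in 1 library, as log2(FPKM + 1) minus the mean of the untreated control libraries (y axis); libraries are ordered by time, population and replicate (x axis) and the bars are medians over genes. The medians of the KD libraries at 8 h are -1.42 and -1.36 against -0.76 and -0.76 in the control libraries at 8 h, while the untreated KD medians of -0.07 and -0.04 lie between those of the untreated control replicates, -0.12 and 0.12.

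These counts too depended on single libraries. Without replicate 1 of untreated control cells 14 of the 46 genes were called lower and without replicate 2 of it 42, and without any of the other 6 libraries 1 to 3, namely 2 and 1 for replicates 1 and 2 of untreated KD cells, 2 and 2 for control cells at 8 h and 2 and 3 for KD cells at 8 h. The median over the 46 genes stayed between -0.69 and -0.43 in these fits, and 44 of the 46 were negative in all 8.

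A list of 33 DNA repair and fork genes, drawn up after the called genes were seen, gave 15 lower and none higher, with a median of -0.49. Over all tested genes 1.61% were called lower and 2.45% higher. Replicate 2 of untreated control cells was above replicate 1 for all 33 genes of this list. In untreated cells Dtl was at 14.4 and 17.8 FPKM in controls and 17.9 and 18.2 in KD cells, and at 8 h at 7.66 and 7.15 and 3.68 and 3.71. Dtl is a substrate receptor of the Cul4 ubiquitin ligase that removes Cdt1 in S phase, and its interaction was -0.998 (SE 0.12, adjusted p = 0.00792), called in all 8 fits. For Ung the control libraries held 8.77 and 10.3 FPKM untreated and 3.72 and 3.56 at 8 h, and the KD libraries 9.67 and 10.3 and 1.47 and 1.47. Ung, the uracil DNA glycosylase, had an interaction of -0.97 (SE 0.12, adjusted p = 0.0097). Brca1, Msh6, Exo1, Topbp1, Timeless, Tipin and Wdhd1 were also called lower, between -0.79 (Wdhd1) and -0.56 (Tipin).

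Shmt1, an enzyme of serine and glycine exchange that feeds thymidylate synthesis, belongs to no list and was among the 15 largest negative interactions. Shmt1 was at 40.5 and 47.3 FPKM in untreated control cells and 42.5 and 43.7 in untreated KD cells, and at 14 and 13.6 in control cells and 6.41 and 7 in KD cells at 8 h. The untreated values overlapped and the KD values at 8 h were below the controls, with an interaction of -0.92 (SE 0.11, adjusted p = 0.00891).

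Of 48 tested genes of mitosis and G2/M, Mybl2 alone was called lower in the interaction (-0.62, adjusted p = 0.0482; 1.61% lower among all tested genes) and the median was -0.13. KD cells were lower at 8 h for 30 of 48 (median -0.32), against 16.5% of all tested genes. At 24 h they were lower for 46 of 48 (median -0.64), against 11.5%, and untreated for 12 of 48 (median -0.15), against 9.09%. For all 48, replicate 2 of untreated control cells was above replicate 1. Whether the replication and mitosis lists differ at a given time was not tested.

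The bases before the annotated start of some of these genes are shown because E2F proteins, the transcription factors of S-phase genes, bind the words TTTCCCGC, TTTCGCGC, TTTGCCGC and TTTGGCGC. These words were searched on both strands in the 250 bases before each RefSeq start (GRCm38.p6), a choice made after the calls were known. At least 1 word was found for 5 of 21 matched called replication genes (23.8%), for 9 of 37 of the tested list (24.3%), for 19 of 146 called genes that were lower in KD cells, for 1 of 209 that were higher (0.478%) and for 360 of 8666 tested genes (4.15%). CCAAT, another common promoter word, was found for 11 of the 21 (52.4%) and for 41.3% of the tested genes. The capitals mark the words on either strand, and the sequences run 5′ to 3′ along the gene, placed on mm9 by exact match. Mdc1 and Dtl are not on the replication list, and Mdc1 was called lower with an interaction of -0.49. For Dtl and Rfc3 the last 30 bases before the start are shown.
Mcm5: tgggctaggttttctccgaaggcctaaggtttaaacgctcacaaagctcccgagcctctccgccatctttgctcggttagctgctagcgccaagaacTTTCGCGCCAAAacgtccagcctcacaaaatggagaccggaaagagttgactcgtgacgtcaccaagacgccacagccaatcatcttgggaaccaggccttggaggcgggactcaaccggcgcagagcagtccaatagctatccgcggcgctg
Uhrf1: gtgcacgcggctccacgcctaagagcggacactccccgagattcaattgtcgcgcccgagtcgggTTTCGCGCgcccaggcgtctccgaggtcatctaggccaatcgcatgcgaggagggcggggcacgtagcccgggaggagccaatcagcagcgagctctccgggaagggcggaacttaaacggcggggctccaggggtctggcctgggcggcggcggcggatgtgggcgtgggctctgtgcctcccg
Mdc1: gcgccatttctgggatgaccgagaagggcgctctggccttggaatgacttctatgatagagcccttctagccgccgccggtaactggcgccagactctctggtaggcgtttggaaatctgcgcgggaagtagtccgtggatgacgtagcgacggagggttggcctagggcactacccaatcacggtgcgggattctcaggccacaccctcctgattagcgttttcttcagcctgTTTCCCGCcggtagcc
Dtl: caatcagaaagcgtgacgtcagTTTGGCGC
Rfc3: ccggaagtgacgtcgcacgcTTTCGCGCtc
They lie at chr8:77633158-77633407 on the plus strand (Mcm5), chr17:56443486-56443735 on the plus strand (Uhrf1), chr17:35978193-35978442 on the plus strand (Mdc1), chr1:193399424-193399453 on the minus strand (Dtl) and chr5:152453784-152453813 on the minus strand (Rfc3), and in Mcm5 words of both strands overlap. The stretch of Uhrf1 lies before the downstream of its 2 RefSeq starts, inside the gene as GENCODE annotates it but in no annotated exon. That of Dtl lies just before the GENCODE start of the gene and in no annotated exon. That of Rfc3 lies wholly inside its first GENCODE exon.

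Lamin B1 ChIP-seq and ATAC-seq peak lists of the parental line, with 1 library per time and so with no replicate check, were read within 500 bp of the GENCODE gene start. A lamin B1 peak at 8 h was found for 11 of 46 replication genes (23.9%), for 65 of 177 placed genes that were lower in KD cells (36.7%) and for 44.4% of 277 that were higher, against 46.5% of 11107 placed tested genes. In untreated cells the lamin B1 shares were 23.9%, 24.9%, 23.5% and 26.8% in the same order. An ATAC peak in untreated cells was found for 34 of 46 replication genes (73.9%) and for 56.4% of the placed tested genes. The shares were not tested against each other. At Mcm5 the ATAC list held a peak at all 3 times and the lamin B1 list none, and at Dtl the lamin B1 list held a peak at 8 h alone.

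Integrins and laminins, the receptors and ligands that anchor epithelial cells to the basement membrane, were called in the interaction in 1 direction. Of 18 tested, 6 were called higher and none lower, against 2.45% higher among all tested genes, with a median of 0.16. At 8 h, 10 of 18 were higher in KD cells (19.3% of all tested genes) and 2 lower, and at 24 h 10 were higher (16.8% of all tested genes) and none lower. In untreated cells Itgb6 was at 11.8 and 11.2 FPKM in controls and 12.1 and 12.9 in KD cells. At 8 h it was at 11.7 and 11.6 in controls and 20.2 and 19.4 in KD cells. Itgb6, the β subunit of an integrin that releases TGF-β from its latent complex, changed little in control cells and rose in KD cells, with an interaction of 0.61 (SE 0.08, adjusted p = 0.0116). For Lamb3 the control libraries held 78 and 83.2 FPKM untreated and 244 and 239.8 at 8 h, and the KD libraries 60.9 and 61.6 and 289.7 and 287. Lamb3, a chain of the laminin under epithelial cells, crossed from lower in untreated KD cells to higher at 8 h, and its interaction of 0.64 (SE 0.06, adjusted p = 0.00237) was called in all 8 fits.

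Lama3 was at 0.024 and 0.00924 FPKM in untreated control cells and 0.0454 and 0.0252 in untreated KD cells, and at 0.406 and 0.318 in control cells and 1.25 and 1.14 in KD cells at 8 h. Lama3, which encodes another chain of the same laminin, was near 0 untreated and at low level at 8 h, and its interaction was 0.66 (SE 0.09, adjusted p = 0.01). Among the 8 libraries of the contrast, only KD cells at 8 h reached the 1 FPKM of the filter for Lama3. Its place among the 6 called higher therefore leans on the group in which it is high. In untreated cells Itga1 was at 3.97 and 2.54 FPKM in controls and 4.89 and 4.9 in KD cells, and at 8 h at 1.77 and 1.58 and 6.68 and 6.3. Itga1, a collagen-binding integrin subunit, was higher in KD cells at both times, with an interaction of 0.99 (SE 0.19, adjusted p = 0.0315), and the replicates of untreated control cells lay apart. Itgb4 and Itgb3 rose in both populations and further in KD cells, with interactions of 0.38 and 0.34 (adjusted p = 0.0272 and 0.0271).

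Fewer lysosomal genes were called in the interaction. Of 33 tested, 4 were called higher and none lower, against 2.45% higher among all tested genes. The median was 0.29 and 32 of 33 were positive. Replicate 2 of untreated control cells was above replicate 1 for only 3 of the 33. The signs therefore share a high replicate 1 of untreated control cells, and its part in them was not tested. In control cells 21 of the 33 fell at 8 h (44.9% of all tested genes), and in KD cells 9 (44.8%). For Hexa the control libraries held 28.1 and 21 FPKM untreated and 9.8 and 9.95 at 8 h, and the KD libraries 22.3 and 21.9 and 14.4 and 14.9. Hexa, a hexosaminidase of ganglioside breakdown, had an interaction of 0.66 (SE 0.15, adjusted p = 0.0482), and Lipa, the acid lipase, and Scarb2, a membrane protein of the lysosome, had 0.48 and 0.42. Of 17 subunits of the vacuolar ATPase, the proton pump of the lysosome, 5 were called higher and none lower (2.45% and 1.61% of all tested genes). This list was drawn up after the called genes were seen. Replicate 2 of untreated control cells was above replicate 1 for none of the 17. Atp6v1a was at 65.5 and 61.1 FPKM in untreated control cells and 70.0 and 68.6 in untreated KD cells, and at 44.4 and 42.9 in control cells and 63.5 and 64.7 in KD cells at 8 h. Atp6v1a, the catalytic subunit of that pump, fell in control cells and stayed nearer its untreated level in KD cells, with an interaction of 0.41 (SE 0.07, adjusted p = 0.0212). Atp6v1a, Atp6v1h and Atp6v0d1 also belong to the lysosomal list, so the call of Atp6v1a counts on both lists.

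On a list of 41 secretory pathway genes, also drawn up after the calls were seen, 11 were called higher and none lower, with a median of 0.22. The shares over all tested genes were 2.45% higher and 1.61% lower. In untreated cells Kdelr3 was at 5.21 and 5.18 FPKM in controls and 5 and 5.27 in KD cells, and at 8 h at 23.7 and 23.8 and 35.1 and 31.2. Kdelr3, a receptor that returns chaperones from the Golgi to the endoplasmic reticulum, had an interaction of 0.48 (SE 0.08, adjusted p = 0.0236), and Serp1, Tram1, Ostc, Bet1, Yipf5, Mcfd2, Arfgap1, Arl1, Tfg and Tmed9 had interactions between 0.23 and 0.39. Of 22 fixed genes of endoplasmic reticulum chaperones and the unfolded protein response, Calr and Dnajb11 were called higher (0.29 and 0.22), against 2.45% of all tested genes. The median was 0.22, and 17 were higher in KD cells at 8 h (19.3% of all tested genes) and none lower.

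**Figure D4:**
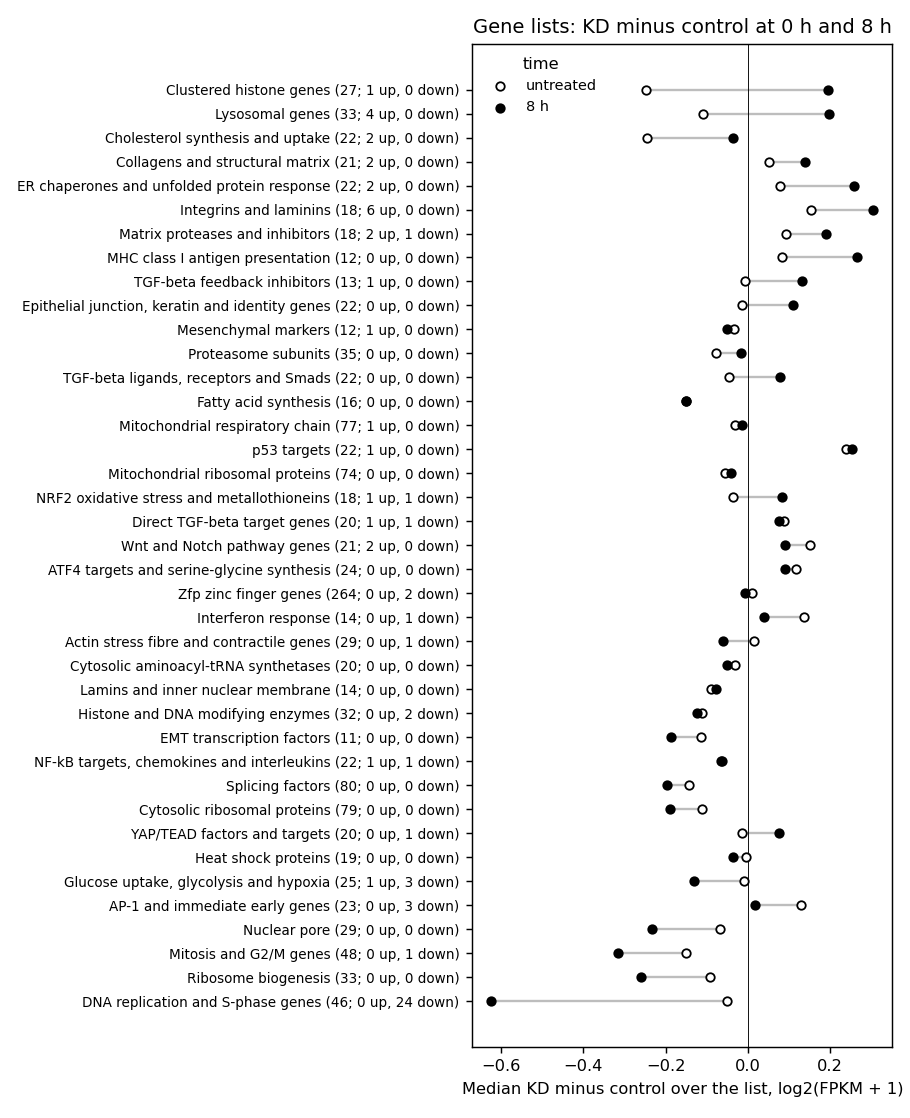
Median KD minus control difference over each of 39 fixed gene lists with at least 10 tested members, on the log2(FPKM + 1) scale (x axis), untreated (open circles) and at 8 h (filled circles); brackets give the tested members and those called up and down in the interaction. DNA replication genes move from -0.05 to -0.62, while most other lists stay within 0.4 of 0 at both times.

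Of 20 tested direct target genes of TGF-β, Itgb6 was called higher and Cyr61 lower (10% called, against 4.06% of all tested genes), and the median interaction was -0.0016 against a median rise of 1.44 in control and 1.51 in KD cells. The interactions of Smad7, Snai1, Cdh2 and Vim were 0.02, 0.12, 0.08 and 0.03, with 95% intervals of -0.24 to 0.27, -0.17 to 0.41, -0.06 to 0.21 and -0.24 to 0.29.

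Fn1 was at 34.8 and 30.6 FPKM in untreated control cells and 45 and 46.2 in untreated KD cells, and at 83.6 and 78.8 in control cells and 84.2 and 73.8 in KD cells at 8 h. Fn1, the fibronectin gene, had an interaction of -0.51 (SE 0.42, adjusted p = 0.542) with a 95% interval of -1.47 to 0.44. In untreated cells Cdh1 was at 121 and 106 FPKM in controls and 127 and 121 in KD cells, and at 8 h at 51.6 and 52.1 and 83.1 and 84.1. Cdh1, the E-cadherin gene, was at a higher level in KD cells at 8 h, by 0.68 (adjusted p = 0.00173), and its interaction of 0.55 was not called (adjusted p = 0.0779). Twist2 had an interaction of -0.05 (95% interval -0.43 to 0.32), and Twist1 did not pass the filter on low values. None of 11 EMT transcription factors and none of 22 epithelial genes was called. With 4.06% called over all tested genes, 0 calls in lists of this size is near the background.

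For Fst the control libraries held 5.91 and 5.84 FPKM untreated and 2.78 and 3 at 8 h, and the KD libraries 8.62 and 8.93 and 9.23 and 9.18. Fst, the gene for follistatin, which binds activins, was the called gene among 13 feedback inhibitors (4.06% called over all tested genes). It fell in control cells, was at 0.06 in the KD response (adjusted p = 0.324) and was higher in KD cells at both times, with an interaction of 0.88 (SE 0.08, adjusted p = 0.002). Sparc was at 307 and 275 FPKM in untreated control cells and 300.4 and 302 in untreated KD cells, and at 197 and 203 in control cells and 285 and 305 in KD cells at 8 h. Sparc, a matrix glycoprotein counted among the mesenchymal markers, had an interaction of 0.51 (SE 0.11, adjusted p = 0.0403), and of the collagen and structural matrix list Thbs1 was called as well (0.34). Of the matrix proteases and their inhibitors, Adam8 (0.63) and Timp3 (0.54) were called higher and Adam12 (-0.52) lower. The Wnt ligand gene Wnt9a (0.76) and the Wnt feedback gene Axin2 (0.46) were called higher.

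In untreated cells Prg4 was at 0.175 and 0.206 FPKM in controls and 0.245 and 0.339 in KD cells. At 8 h it was at 15.3 and 13.1 in controls and 56.9 and 55.7 in KD cells. Prg4, which encodes the lubricating proteoglycan lubricin, had the second largest positive interaction among the named genes, 1.80 (SE 0.10, adjusted p = 0.000118). It was induced from below 1 FPKM in both populations, the KD values at 8 h were 3.96 times the control mean, and at 24 h it was at 3.97 and 4.06 FPKM in control and 21.6 and 20.8 in KD cells. For Bpifc the control libraries held 0.0154 and 0.0222 FPKM untreated and 8.45 and 8.1 at 8 h, and the KD libraries 0.00868 and 0.03 and 20.1 and 20.3. Bpifc, likewise at or near 0 untreated, had an interaction of 1.19 (SE 0.16, adjusted p = 0.0126).

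A further set of genes differed in level before treatment. Apoa1 was at 0.991 and 0.879 FPKM in untreated control cells and 10.2 and 10.8 in untreated KD cells, and at 0.0186 and 0.0203 in control cells and 0.796 and 0.819 in KD cells at 8 h. Apoa1, the gene for the main protein of high-density lipoprotein, was higher in KD cells at both times and fell in both populations. The difference was 2.57 untreated and 0.83 at 8 h (log2, adjusted p = 1.71e-07 and 6.14e-05 in limma). As a ratio of mean FPKM, KD cells were at 11.2 times the control untreated and 41.6 times at 8 h. The interaction of Apoa1, -1.74 (SE 0.08, adjusted p = 3.11e-05), was the largest negative one named. It ran from -1.78 to -1.70 in the 8 fits that each left out a library. In untreated cells Gjb1 was at 2.33 and 1.16 FPKM in controls and 9.31 and 8.73 in KD cells, and at 8 h at 0.052 and 0.0909 and 0.608 and 0.384. Gjb1, a connexin gene, was higher in untreated KD cells, with an interaction of -1.42 (SE 0.24, adjusted p = 0.0223). For these low-level genes the sign depends on the scale: as a plain ratio of mean FPKM, Apoa1 was left at 2.08% of its untreated level in control and 7.70% in KD cells, and Gjb1 at 4.09% and 5.50%, so that KD cells lost the smaller share. With an added constant of 0.1 in place of 1 neither was called, at -0.43 (adjusted p = 0.336) for Apoa1 and -0.60 (adjusted p = 0.486) for Gjb1. Gjb1 was also not called without any 1 of the 6 libraries outside the untreated control cells (adjusted p from 0.0697 to 0.105). Of 459 called genes with a ratio, 8 had the opposite sign as a plain ratio, Apoa1 and Gjb1 being the ones among the 30 largest named. Sema4g, Gsta1 and Glyat had the same order of untreated levels, with interactions of -1.09, -1.04 and -0.91, the last 2 being genes of conjugation and detoxification.

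For Nt5e the control libraries held 3.41 and 2.82 FPKM untreated and 20.1 and 20.4 at 8 h, and the KD libraries 7.52 and 7.07 and 22.4 and 23.1. Nt5e, which encodes the surface enzyme CD73, rose in both populations from a higher untreated level in KD cells, with an interaction of -0.85 (SE 0.09, adjusted p = 0.00613). Cyr61 was at 45.9 and 48 FPKM in untreated control cells and 75.5 and 85 in untreated KD cells, and at 115 and 111 in control cells and 119.5 and 119 in KD cells at 8 h. Cyr61, a matrix-associated target of YAP and of TGF-β, was likewise higher in untreated KD cells and not called different at 8 h, with an interaction of -0.68 (SE 0.10, adjusted p = 0.0163). Genes that respond to growth factor signalling were in this set too: Dusp6, a phosphatase that acts on ERK, was at 20.9 and 22.7 FPKM in untreated control, 33.1 and 33 in untreated KD, 12.3 and 13.2 in control at 8 h and 12.9 and 13.7 in KD cells at 8 h, with an interaction of -0.53 (SE 0.08, adjusted p = 0.0183). In untreated cells Egr1 was at 5.75 and 5.49 FPKM in controls and 7.89 and 7.57 in KD cells, and at 8 h at 3.49 and 3.28 and 1.54 and 1.74. Egr1, an immediate early transcription factor, crossed from above to below the controls, with an interaction of -1.13 (SE 0.16, adjusted p = 0.0163). Dusp1 (-0.49) completed the 3 called lower of 23 immediate early genes, against 1.61% lower among all tested genes.

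The opposite order, with a lower untreated level in KD cells, was found for 3 keratins and an integrin. On a list of 18 tested keratins, drawn up after the calls were seen, 3 were called higher and none lower. Over all tested genes 2.45% were higher and 1.61% lower. The median over the 18 was -0.02, with 9 positive and 9 negative. In untreated KD cells 6 of the 18 were lower (9.09% of all tested genes). For Itgb7 the control libraries held 28 and 40.8 FPKM untreated and 10.3 and 9.14 at 8 h, and the KD libraries 8.58 and 9.37 and 7.04 and 7.25. Itgb7, a β subunit best known from leukocytes, fell in control cells to a level near that of KD cells, with an interaction of 1.41 (SE 0.21, adjusted p = 0.0183). Krt6a was at 47.4 and 71.3 FPKM in untreated control cells and 33.7 and 33.7 in untreated KD cells, and at 34 and 29.9 in control cells and 41.3 and 45.8 in KD cells at 8 h. Krt6a, a keratin of activated epithelia, had an interaction of 1.20 (SE 0.23, adjusted p = 0.033), and Krt6b and Krt14 had 1.01 and 1.00. Krt6a and Krt6b are near-identical copies, and the Lce1, Sprr2 and glutathione transferase families hold some close copies. The values of such copies are uncertain where fragments could be split between them. On a list of 22 genes of the cornified envelope, drawn up after the calls were seen, 6 were called higher and 2 lower (2.45% and 1.61% of all tested genes). In untreated cells Sprr2a1 was at 4.06 and 3.09 FPKM in controls and 62.6 and 55.7 in KD cells, and at 8 h at 0.838 and 1.17 and 46.6 and 50.4. Sprr2a1, a precursor of that envelope, was higher in KD cells at both times, with an interaction of 0.91 (SE 0.17, adjusted p = 0.0316).

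**Figure D5:**
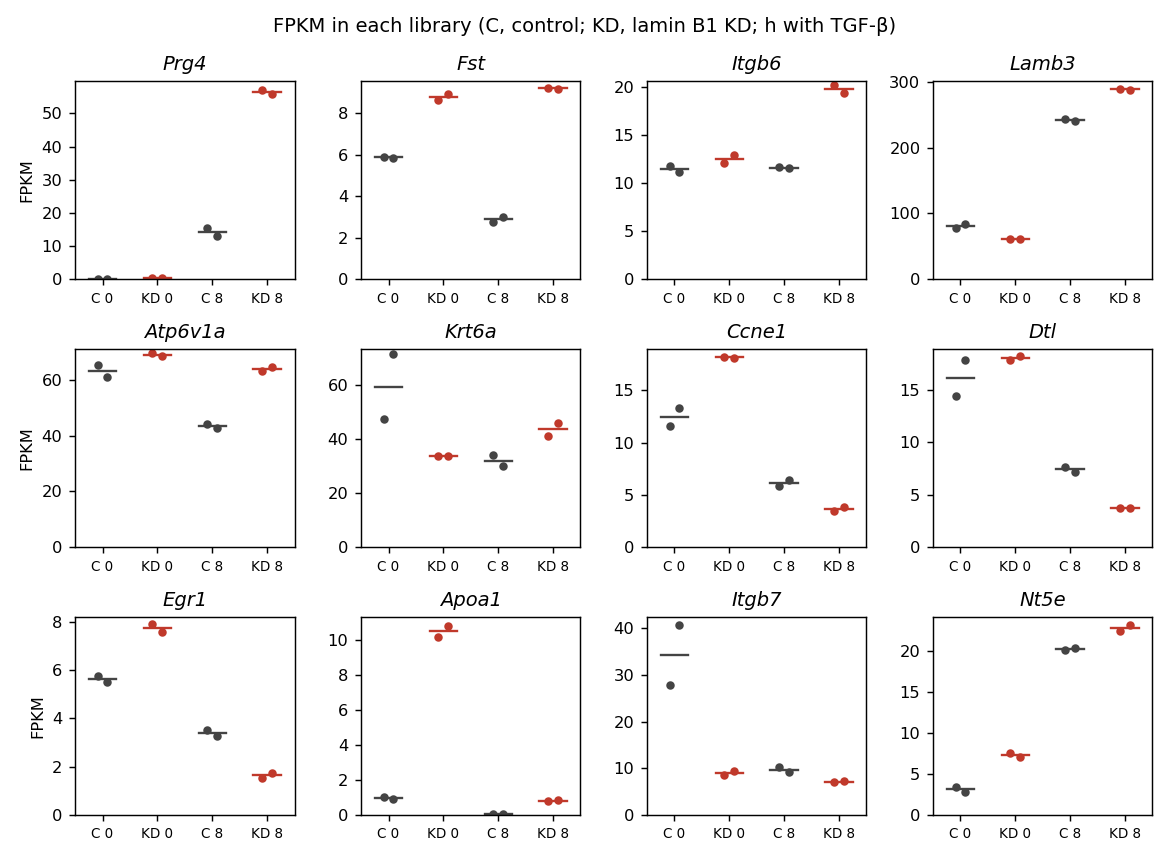
FPKM of 12 genes in each of the 8 libraries (points) with group means (bars), for control (grey) and KD cells (red) untreated and at 8 h; each y axis starts at 0. Prg4, Itgb6 and Atp6v1a differ at 8 h, Itgb7 and Nt5e mainly untreated, and Ccne1 and Egr1 cross. Apoa1 differs at both times, with the larger gap in FPKM untreated.

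Other genes with large positive interactions fell at 8 h in both populations, and less in KD cells. For Ephx1 the control libraries held 218 and 147 FPKM untreated and 22.9 and 25.4 at 8 h, and the KD libraries 349 and 318 and 96.4 and 105. Ephx1, the microsomal epoxide hydrolase, was higher in KD cells at both times and its interaction was 1.13 (SE 0.23, adjusted p = 0.0375). Vnn1 was at 84.4 and 77.9 FPKM in untreated control cells and 133 and 126 in untreated KD cells, and at 13 and 14.3 in control cells and 47.4 and 44.3 in KD cells at 8 h. Vnn1, a pantetheinase gene, had the same order at both times, with an interaction of 1.01 (SE 0.19, adjusted p = 0.0304). In untreated cells Sepp1 was at 539 and 314 FPKM in controls and 352 and 357 in KD cells, and at 8 h at 39.9 and 44.3 and 96.3 and 95.4. Sepp1, the selenium transport protein, had untreated control replicates on either side of both KD replicates, with an interaction of 1.38 (SE 0.27, adjusted p = 0.0349).

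The 8 h differences were mostly present at 24 h. Of the 169 genes higher in KD cells at 8 h alone of these 2 times, 127 were called higher at 24 h as well and none lower, against 16.8% higher among all tested genes, with the median difference moving from 0.47 to 0.33. Of the 108 lower genes, 81 were called lower at 24 h and none higher, against 11.5% of all tested genes, with the median moving from -0.50 to -0.32. At 24 h the KD minus control difference was called for 3241 genes (28.3%) in all. The calls at 8 h and 24 h share 1 estimate of the spread per gene. Genes called at 8 h are therefore more easily called at 24 h, and the share over all tested genes is not a matched background. Parental cells without shRNA, in 6 separate libraries, gave an 8 h response for 430 of the called genes, and on that scale it lay nearer the response of control cells than that of KD cells for 316 (73.5%), including all 24 called replication genes. The same share was not computed over all tested genes, so whether 73.5% differs from it is not known. These counts are a description of the called genes.

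No call was made in 16 of the 41 fixed lists, with 493 tested members, against 4.06% called over all tested genes. The medians of these lists lay between -0.20 and 0.13. The lists include ribosomal proteins, ribosome biogenesis, splicing factors, the proteasome, heat shock proteins and nuclear pore genes. A list with no call is not thereby shown to respond alike in both populations. All 33 tested ribosome biogenesis genes had a negative interaction, with a median of -0.20, and none was called. Of the 27 tested histone genes 1 was called higher (2.45% of all tested genes) and the median was 0.34. Small RNA genes took 7.35% to 35.6% of the summed FPKM of the 8 libraries, 31.7% and 15.6% in the replicates of KD cells at 8 h. The part of this share in the results was not tested. A fit without these genes called 518 genes, but it did not rescale the libraries and so cannot test the share. Scaling to the sum without the 100 highest genes, of any kind, called 321 genes, 223 higher and 98 lower.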

How the data were processed

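RNA-seq libraries of control and lamin B1 shRNA NMuMG cells (0, 8 and 24 h of TGF-β, 2 biological replicates each) were used as FPKM values that the authors deposited, 1 column per library; the submitters' processing notes name Bowtie, TopHat and Cufflinks with mm9, in no stated role. FPKM keep no counts, so absolute depth is unknown; the smallest steps in the values put the relative depth of the 12 libraries between 79.2% and 113% of the first. Peak lists deposited for lamin B1 ChIP-seq and ATAC-seq hold positions and a score per peak, read here for position only.

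Values were put on the log2(FPKM + 1) scale, which understates changes of low genes. Genes that reached 1 FPKM in 2 or more of the 12 libraries were fitted with limma 3.58.1 (R 4.3.3; lmFit, contrasts.fit, eBayes with a trend) over the 6 groups, with no covariate and Benjamini-Hochberg adjustment over 11450 genes; the test is two-sided and was checked on simulated data. The p-values measure the spread between 2 libraries a group. Parental libraries were fitted the same way in their own table. The members and lists were chosen with earlier results of these data known, and 7 of the lists after the calls. Named genes were Lmnb1 and the lamina list, the 15 largest interactions in each direction among called genes with a highest group mean of at least 5 FPKM and a stable sign (no small RNA or predicted genes), and called list members; genes called in all 8 fits that each leave out a library were added afterwards. Some of these genes are not reported here. Replicate numbers do not pair the libraries: the correlations of replicate differences between groups ran from -0.135 to 0.368. By symbol or older symbol, 11107 tested genes were placed on GENCODE gene starts (mm9). Promoter bases came from RefSeq (GRCm38.p6). Chromosome contact samples were not analysed here. Figures were drawn with matplotlib 3.10.9.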

Additional observations from a re-analysis of the deposited data

Results flagged for a closer look

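The 8 h response differed between KD and control cells, by the interaction test in limma, for 465 genes, and the named genes with the largest interactions are given here on the log2(FPKM + 1) scale, each at a Benjamini-Hochberg adjusted p under 0.05 over all tested genes. Responses that were higher in KD cells were those of Ms4a4b 1.99, Prg4 1.80, Itgb7 1.41, Sepp1 1.38, Krt6a 1.20, Bpifc 1.19, Ephx1 1.13, Slpi 1.10, Fbxo36 1.06, Serinc5 1.03, Vnn1 1.01, Krt6b 1.01, Krt14 1.00, Itga1 0.99, Csdc2 0.97. Responses that were lower in KD cells were those of Apoa1 -1.74, Gjb1 -1.42, Lce1g -1.35, Lce1a2 -1.24, Ccne1 -1.14, Egr1 -1.13, Sema4g -1.09, Tmem171 -1.06, Gsta1 -1.04, Dtl -0.998, Ung -0.97, Shmt1 -0.92, Glyat -0.91, Mcm3 -0.88. For Apoa1 and Gjb1 the plain ratio of mean FPKM had the opposite sign. Groups of 2 libraries are too small for a check of single libraries against their group.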

How the results depend on the processing

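Among 106 named genes no interaction changed sign under any alternative, and the interaction stayed on its side of the threshold for 100 with upper quartile scaling, 98 with quantile normalization, 86 with an added constant of 0.1, 95 without a trend, 63 with no filter on low values, 78 with the replicate block, 75 and 102 without replicates 1 and 2 of untreated control cells, and 21 to 28 without any 1 of the other 6 libraries. In the order all genes called, higher, lower, KD difference at 8 h only, untreated only and both, the counts were 284, 166, 118, 170, 40 and 74 with the replicate block, which is given here because the numbers do not pair the libraries, and 714, 443, 271, 387, 144 and 183 with only the 8 libraries in the fit. They were 40, 29, 11, 25, 5 and 10 at an adjusted p under 0.01, with 2 replication genes, and 30, 16, 14, 11, 7 and 12 with a 2-fold minimum, with 1. No filter gave 181 at 8 h only and 12 replication genes; a constant of 0.1 gave 54 untreated only; and scaling to the sum without the 100 highest genes gave 98 lower and 66 at both times. Upper quartile scaling called 200 genes higher and 253 lower, and quantile normalization 241 and 235. Leaving out 1 library at a time gave 29 to 1485 genes in all, 21 to 887 higher, 8 to 598 lower, 14 to 960 at 8 h only, 5 to 216 untreated only, 10 to 265 at both and 1 to 42 replication genes; the highest of each came without replicate 2 of untreated control cells, and the lone library left was assumed to vary like the other groups. At an unadjusted p under 0.05 those fits called 1628 to 3372 genes. The fit without small RNA genes, 518 genes, was added after the data were seen. FPKM carry no depth, so differences of genes near 1 FPKM were judged from 2 libraries a group alone.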

Other observations

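3 small RNA genes were called lower and are left out of the named genes, because their values are 0 in most libraries. Snord85 was at 659 FPKM in replicate 1 of untreated KD cells and at 0 in the other untreated libraries, at 2359.8 and 2526 in control cells at 8 h and at 0 in KD cells at 8 h and in all 24 h libraries. Mir7024 (3809 and 4034 FPKM) and Snord83b (529 and 1169 FPKM) were above 0 in control cells at 8 h and listed at 0 in the other 10 libraries. Called genes that lie under the level for naming included Ranbp3l, at 0.339 and 0.377 FPKM in untreated control and 1.75 and 1.79 in untreated KD cells and below 0.1 in each of the 4 libraries at 8 h, and Mdfi, at 0.284 and 0.193 in control and 1.43 and 1.34 in KD cells at 8 h. Of the libraries given here, only those of KD cells reached the 1 FPKM of the filter, untreated for Ranbp3l and at 8 h for Mdfi. Both calls therefore lean on the group in which the gene is high.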
